A study of Mus musculus with 9 samples.

Results

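Transcripts of 10 core genes of the circadian clock were followed in mouse cortex: the repressors Per1, Per2, Per3, Cry1 and Cry2, the activators Arntl and Clock, the nuclear receptor gene Nr1d1, and the output factors Dbp and Tef. They were chosen by symbol, and all 10 were among the 34714 gene symbols counted and among the 18644 that had enough counts to be tested. RNA came from cortical tissue of mice (Mus musculus) in 3 groups of 3 libraries each. The first group had experimental autoimmune encephalomyelitis (EAE, an immune-mediated model of multiple sclerosis) and received Au18(L-NIBC)14, a gold nanocluster with N-isobutyryl-L-cysteine ligands. The second had EAE without that treatment, and the third was naive. The sources used here do not give strain, sex, age, dose, treatment schedule, disease score, or the day and hour of collection. Nothing states whether brains were pooled, so the p-values measure the spread between these libraries.

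The clock is a feedback loop of transcription present in most cells. The proteins CLOCK and BMAL1 (encoded by Arntl) bind E-box sequences and activate the Per and Cry genes, whose products return to repress them. A second loop runs through REV-ERB alpha (Nr1d1), which represses Arntl, and the PAR bZIP factors DBP and TEF carry rhythm to output genes by binding D-box sequences. In tissues with a running clock, Arntl transcript peaks at about the opposite time of day to Dbp and the Per transcripts. Per1 is in addition induced by glucocorticoid hormones and by CREB signalling in active neurons.

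Promoter sequences of 5 members are shown because they carry, or lack, the elements named above and belong to genes described at length here. Each is a RefSeq window (GRCm38.p6) from 250 bases before to 50 bases after an annotated start, 5′ to 3′ on the strand of the gene. Such a start can lie inside the span of the gene given below, as in Per1, and some genes have more than 1 window. Capitals mark an E-box (CACGTG) or a D-box (TTATGTAA or TTACGTAA) found on either strand.
Per1 (chr11:69098699-69098998, plus strand): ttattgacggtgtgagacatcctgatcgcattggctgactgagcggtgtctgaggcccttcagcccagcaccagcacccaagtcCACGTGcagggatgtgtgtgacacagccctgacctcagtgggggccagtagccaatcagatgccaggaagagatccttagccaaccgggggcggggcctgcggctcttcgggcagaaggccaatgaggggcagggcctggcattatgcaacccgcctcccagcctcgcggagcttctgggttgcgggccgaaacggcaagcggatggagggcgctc
Cry1 (chr10:85185005-85185304, minus strand): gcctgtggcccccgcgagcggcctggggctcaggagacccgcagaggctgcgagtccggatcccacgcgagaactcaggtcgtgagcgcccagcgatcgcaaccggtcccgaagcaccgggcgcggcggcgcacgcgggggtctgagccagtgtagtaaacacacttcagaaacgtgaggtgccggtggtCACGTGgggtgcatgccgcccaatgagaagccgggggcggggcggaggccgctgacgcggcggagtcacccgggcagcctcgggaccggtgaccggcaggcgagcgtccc
Tef (chr15:81802423-81802722, plus strand): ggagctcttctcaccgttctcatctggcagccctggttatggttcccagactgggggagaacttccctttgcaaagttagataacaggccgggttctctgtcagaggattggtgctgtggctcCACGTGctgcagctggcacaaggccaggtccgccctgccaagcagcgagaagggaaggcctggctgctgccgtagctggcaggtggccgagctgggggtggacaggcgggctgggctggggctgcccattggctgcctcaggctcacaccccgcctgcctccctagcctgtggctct
Per3 (chr4:151044616-151044915, minus strand): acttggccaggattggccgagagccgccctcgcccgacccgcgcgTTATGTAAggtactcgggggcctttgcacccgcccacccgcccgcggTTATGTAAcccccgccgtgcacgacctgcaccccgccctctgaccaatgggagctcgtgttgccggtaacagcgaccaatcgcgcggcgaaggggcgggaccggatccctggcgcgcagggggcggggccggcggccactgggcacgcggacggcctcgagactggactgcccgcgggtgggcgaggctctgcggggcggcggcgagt
Dbp (chr7:45704997-45705296, plus strand): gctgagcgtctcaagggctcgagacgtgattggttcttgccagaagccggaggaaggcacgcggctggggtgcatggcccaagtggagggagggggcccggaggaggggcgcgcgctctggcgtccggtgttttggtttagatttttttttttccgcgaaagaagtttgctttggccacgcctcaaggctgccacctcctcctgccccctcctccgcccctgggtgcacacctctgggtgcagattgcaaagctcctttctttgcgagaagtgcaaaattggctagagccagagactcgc

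In the windows shown, the E-box began 166 bases before the start in Per1, 60 bases before it in Cry1 and 127 bases before it in Tef. A further window of Per1 held no E-box, and a further window of Tef held 1, which began 138 bases before its start. Per3 held 2 D-boxes, 205 and 158 bases before its start. Dbp held no match to any motif searched in this window. RefSeq windows were found for 9 of the 10 members, 14 windows in all, with no entry for Per2. An E-box stood in windows of 3 of the 9 members (4 of 14 windows), against 7.15% of all 32851 windows of that length, and a D-box in 1 of 14 windows, against 1.06%. The core of the ROR element (TAGGTCA), bound by REV-ERB alpha and ROR receptors, stood in 1 window of Arntl, 30 bases past the start, and in 2.61% of all windows. Neither the full cAMP response element (TGACGTCA, 1.79% of all windows) nor the palindromic glucocorticoid response element (0.475%) was found in a member's window. The shorter core of the cAMP response element (TGACG, 20.8%), which overlaps the full one, was found in 3 members. A match is a description of these letters only.

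Total counts ranged from 26972179 to 45243553 per library. The count of a member was at least 401 in every library. Values are CPM, which are counts scaled to a common library size, here with TMM factors. Levels of different genes are compared per kilobase of exon. In treated libraries Tef was the most abundant member at 96.4 ± 0.274 CPM per kilobase (SD, n = 3), followed by Nr1d1 (62.7 ± 9.32), Dbp (54.2 ± 5.51), Cry2 (37.6 ± 0.51) and Per1 (23.2 ± 4.07). Per3 (11.9 ± 1.88), Arntl (11.8 ± 0.707), Per2 (10.2 ± 0.164), Clock (9.94 ± 0.452) and Cry1 (5.70 ± 0.732 CPM per kilobase) were lower. In EAE the level of Cry2 (42.3 ± 2.92) was above that of Dbp (38.6 ± 1.63), and those of Per3 (14.6 ± 1.61) and Per2 (12.6 ± 3.21) were above that of Arntl (11.1 ± 1.03 CPM per kilobase). Of these pairs, only Per3 and Arntl had EAE libraries that did not overlap. In naive cortex Dbp (49.5 ± 7.48) was above Cry2 (37.3 ± 1.11), and Arntl (13.3 ± 0.607) was above Per3 (11.3 ± 0.696) and Per2 (8.65 ± 0.697 CPM per kilobase), each without overlap. In all 3 groups Tef was highest and Cry1 lowest, and neither overlapped its neighbour in the order.

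The libraries also differed in the levels of marker genes of tissues and cell types. Slc17a7, the vesicular glutamate transporter gene of cortical excitatory neurons, was at 1388 to 1439 CPM in treated, 1152.5 to 1319 CPM in EAE and 1230.4 to 1382 CPM in naive libraries. The summed level of 5 red cell markers was 102 to 380 CPM in treated, 7.16 to 23.6 CPM in EAE and 131 to 175 CPM in naive libraries. All 5 were lower in every EAE library than in any other. That of 5 choroid plexus markers was 890, 25.0 and 102 CPM in EAE replicates 1, 2 and 3, above the 7.46 to 16.9 CPM of treated libraries, and was at most 43.7 CPM in naive libraries. The summed level of 6 striatal markers ran from 180 to 1287 CPM, both in naive libraries. Of 8 genes listed as markers of the hypothalamus, which holds the central clock, Vip carried most of the summed level. It also marks cortical interneurons, and was at 32.0 to 35.5 CPM in treated, 36.8 to 44.9 CPM in EAE and 31.6 to 32.6 CPM in naive libraries. Six6 was at 0.0735 CPM or less and Nms at 0.179 CPM or less in every library. Avp, a hypothalamic neuropeptide gene, was at 14.0 CPM in EAE replicate 3 and at 2.30 CPM or less in the other 8 libraries. The summed level of 5 microglial markers was 179 to 204 CPM in treated libraries, 168, 339 and 224 CPM in EAE replicates 1, 2 and 3, and 148 to 185 CPM in naive libraries. Gfap, a gene of reactive astrocytes, was at 159 to 235 CPM in treated, 262 to 627 CPM in EAE and 99.6 to 210.3 CPM in naive libraries (log2 fold change 1.42 in EAE against naive, edgeR adjusted p = 0.109). The other astrocyte markers listed, Aqp4 (-0.03), Aldh1l1 (-0.13) and Slc1a3 (-0.02), lay slightly below 0 in that comparison. Their edgeR adjusted p were 0.974, 0.767 and 0.958, and the median of the 4 markers was -0.02. The summed level of 4 myelin markers was 2476, 4014 and 8274 CPM in treated replicates 1, 2 and 3, and ran from 4568 to 5266 CPM in EAE and from 4082 to 6199 CPM in naive libraries. Fewer cells of a type and less RNA per cell cannot be told apart in such bulk samples. The part of tissue make-up in the results below was not tested.

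**Figure D1:**
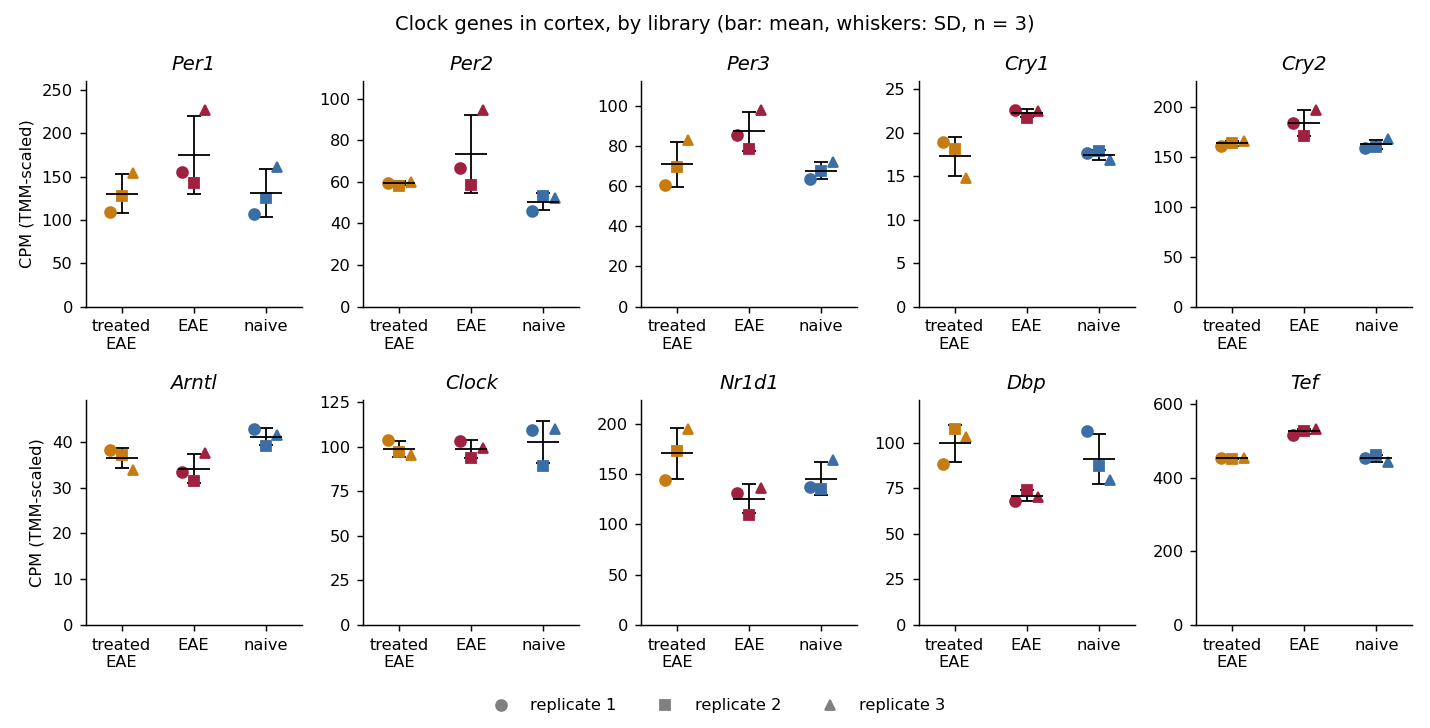
CPM of the 10 clock genes in each library, with treated EAE at left, EAE in the middle and naive at right. Points are libraries, horizontal bars are means and whiskers are SD (n = 3). Per2, Per3, Cry1, Cry2 and Tef lie higher, and Arntl and Dbp lower, in all 3 EAE libraries than in any naive library.

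EAE was first set against naive cortex, the contrast that addresses the disease itself. In the EAE libraries transcripts of the repressors Per2, Per3, Cry1 and Cry2 and of Tef were higher, and those of Arntl and Dbp lower. The log2 fold changes ran from -0.36 for Dbp to 0.54 for Per2. None of the 10 members passed an adjusted p of 0.05 in edgeR's quasi-likelihood test over all genes, where 0.987% of all genes passed. In 7 of the 10 the 3 EAE and 3 naive libraries did not overlap, against 24.0% of all genes tested. In 5 of them EAE was higher (12.2% of all genes) and in 2 it was lower (11.8%). At an unadjusted p under 0.05 there were also 7, against 16.4% of all genes. DESeq2 at an adjusted p of 0.05 called 3 of them (Per2, Cry1 and Tef, each higher in EAE), against 5.68% of all genes it tested, or 3.80% for higher genes. The study's own threshold also asks for an absolute log2 fold change above 1, which no member reached in any comparison.

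Among the repressors, Per2 (chromosome 1, 91415982 to 91459324, GRCm38) had the largest difference. It was at 66.8, 58.6 and 94.4 CPM in EAE replicates 1, 2 and 3, and at 45.8, 53.2 and 52.5 CPM in naive replicates 1, 2 and 3. All EAE values were above all naive values, with 1 EAE library far above the others. The log2 fold change was 0.54 (SE 0.15, edgeR adjusted p = 0.125, DESeq2 adjusted p = 0.0256), and 0.32 without EAE replicate 3 (edgeR adjusted p = 0.174). Per3 (chromosome 4, 151003652 to 151044665), a paralogue with a lesser role in the core loop, was at 85.7, 78.9 and 98.0 CPM in EAE and at 63.7, 67.9 and 72.0 CPM in naive libraries. These groups did not overlap either, and the log2 fold change was 0.37 (SE 0.12, edgeR adjusted p = 0.166).

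Per1 (chromosome 11, 69095217 to 69109960) was the member with the widest spread, its highest library being 2.11 times its lowest. Its values were 155, 143 and 226 CPM in EAE, against 107, 125 and 162 CPM in naive cortex. Naive replicate 3 lay above EAE replicates 1 and 2, so the groups overlapped. The log2 fold change of 0.41 (SE 0.21, 95% interval -0.07 to 0.90) did not pass in edgeR (adjusted p = 0.378) or DESeq2 (adjusted p = 0.290). Leaving out EAE replicate 3 brought it to 0.19 (edgeR adjusted p = 0.712).

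The cryptochrome genes, whose proteins are the main repressors of CLOCK and BMAL1, were both higher in EAE. Cry1 (chromosome 10, 85131700 to 85185064) was at 22.6, 21.7 and 22.5 CPM in EAE and at 17.7, 17.9 and 16.8 CPM in naive libraries. The values were tight within each group and far apart between them. The log2 fold change was 0.35 (SE 0.10, edgeR adjusted p = 0.122, DESeq2 adjusted p = 0.0498). Cry2 (chromosome 2, 92403646 to 92434043) was at 184, 171 and 196 CPM in EAE and at 159, 159.9 and 168 CPM in naive libraries (log2 fold change 0.18, SE 0.07, edgeR adjusted p = 0.228). Its groups did not overlap, by a margin of 171 against 168 CPM.

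Of the activators, Arntl (chromosome 7, 113207465 to 113314126) was lower. It was at 33.4, 31.4 and 37.7 CPM in EAE and at 42.8, 39.1 and 41.5 CPM in naive cortex, without overlap. The log2 fold change was -0.27 (SE 0.09, edgeR adjusted p = 0.157). Clock (chromosome 5, 76209868 to 76304792), whose transcript is known to vary little over the day, was at 103, 93.4 and 99.2 CPM in EAE and at 109, 89.0 and 109.9 CPM in naive libraries. These overlapped, and the 95% interval of the log2 fold change of -0.06 ran from -0.26 to 0.14. Nr1d1 (chromosome 11, 98767932 to 98775333), the repressor of Arntl, was at 131, 109 and 136 CPM in EAE and at 137, 135 and 164 CPM in naive libraries. The groups overlapped (log2 fold change -0.21, SE 0.13, edgeR adjusted p = 0.466).

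The PAR bZIP genes lay on opposite sides. Tef (chromosome 15, 81802421 to 81826863) was at 518, 528 and 533 CPM in EAE and at 455, 462 and 442 CPM in naive cortex. The difference was small beside that of Per2 but large against the spread, with SDs of 7.70 and 9.88 CPM. Its log2 fold change of 0.22 (SE 0.06) had an edgeR adjusted p of 0.103 and a DESeq2 adjusted p of 0.000478. Dbp (chromosome 7, 45705088 to 45710203) was at 68.2, 74.1 and 70.3 CPM in EAE and at 106, 87.1 and 79.6 CPM in naive cortex. Every EAE value was below every naive value. Its log2 fold change of -0.36 (SE 0.11) had an edgeR adjusted p of 0.152 and a DESeq2 adjusted p of 0.0672. Exons of Dbp share 29.3% of their bases with Sphk2 on the opposite strand, and those of Nr1d1 share 9.67% with Thra. Thra is an abundant transcript at 713 to 928 CPM, and Sphk2 was at 32.0 to 36.4 CPM. The strand setting of the counting is not given, so the values of Dbp and Nr1d1 are uncertain to that extent. Cry2, Arntl and Tef share at most 4.10% of their exon bases with other genes.

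**Figure D2:**
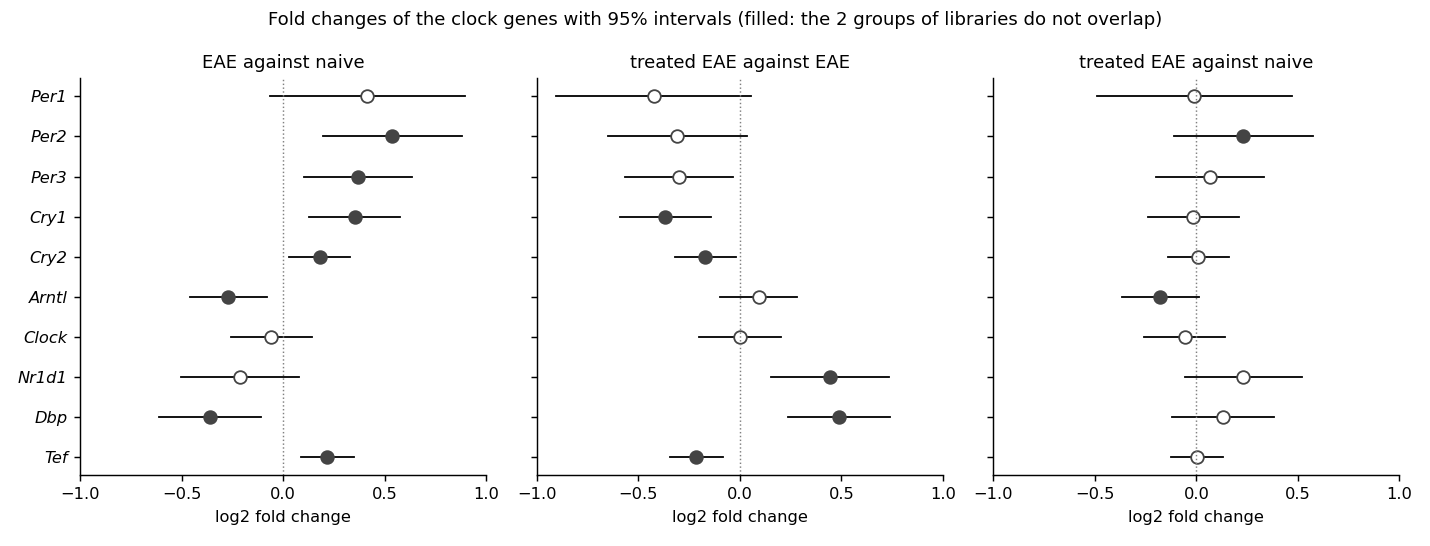
Log2 fold changes of the 10 clock genes in the 3 comparisons, with 95% intervals from edgeR. Filled points mark genes whose 2 groups of libraries do not overlap: 7 in EAE against naive, 5 in treated EAE against EAE and 2 in treated EAE against naive.

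The comparison of treated with untreated EAE asked what the nanocluster changed. In treated libraries Dbp and Nr1d1 were higher and Cry1, Cry2 and Tef lower than in EAE, each without overlap between the groups. This comparison shares its EAE libraries with the previous one. No member passed in edgeR, where 0.220% of all genes passed. The groups did not overlap for 5 of 10 members, against 19.2% of all genes. Of these, 2 were higher (9.93% of all genes) and 3 lower (9.28%). Of the 10, 6 had an unadjusted p under 0.05, against 15.1%. DESeq2 called 4 of the 10 (Dbp and Nr1d1 higher, Cry1 and Tef lower), against 3.84% of all genes it tested, 1.76% higher and 2.08% lower. Without 1 library of the comparison at a time, the groups did not overlap for 5 to 8 members, against 26.5% to 35.3% of all genes. The 8 were without EAE replicate 2 (26.9%).

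Dbp had the largest difference of the members. It was at 88.2, 108 and 103 CPM in treated libraries and at 68.2, 74.1 and 70.3 CPM in EAE. The lowest treated value was above the highest EAE value by more than the SD of either group, 10.1 and 2.99 CPM. The log2 fold change was 0.49 (SE 0.11, edgeR adjusted p = 0.111, DESeq2 adjusted p = 0.00783). Nr1d1 was at 144, 173 and 195 CPM in treated libraries and at 131, 109 and 136 CPM in EAE (log2 fold change 0.44, SE 0.13, edgeR adjusted p = 0.167, DESeq2 adjusted p = 0.0467). The gap between the groups was 144 against 136 CPM.

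Tef was at 455, 452 and 455 CPM in treated libraries, against 518, 528 and 533 CPM in EAE. The treated values lay within 3 CPM of each other and far below every EAE value. The log2 fold change was -0.21 (SE 0.06, edgeR adjusted p = 0.148, DESeq2 adjusted p = 0.000831). Cry1 was at 18.9, 18.2 and 14.7 CPM in treated libraries, against 22.6, 21.7 and 22.5 CPM in EAE (log2 fold change -0.37, SE 0.10, edgeR adjusted p = 0.149, DESeq2 adjusted p = 0.0472). Cry2 was at 161, 164 and 165 CPM in treated libraries, against 184, 171 and 196 CPM in EAE (-0.17, SE 0.07, edgeR adjusted p = 0.277).

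The period genes overlapped between treated and untreated EAE. Per1 was at 109, 127 and 155 CPM in treated libraries and Per3 at 60.7, 69.5 and 83.1 CPM. Their log2 fold changes were -0.42 (SE 0.21) for Per1 and -0.30 (SE 0.12) for Per3. Per2 was at 59.5, 58.2 and 60.0 CPM in treated libraries, a narrow range beside the 58.6 to 94.4 CPM of EAE (log2 fold change -0.31, SE 0.15). Without EAE replicate 3 the log2 fold change was -0.20 for Per1 and -0.09 for Per2. Arntl (0.09, 95% interval -0.10 to 0.28) and Clock (0.00, 95% interval -0.20 to 0.20) overlapped as well.

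Between treated EAE and naive cortex the log2 fold changes of the members ran from -0.18 for Arntl to 0.23 for Per2 and Nr1d1. This comparison shares its libraries with the other two. No gene passed in edgeR in this comparison, 0 of all genes tested, while 1.71% of all genes and none of the 10 members had an unadjusted p under 0.05. DESeq2 called 3 genes (0.0109% of those it tested), none of them a member. The groups did not overlap for 2 members, against 6.25% of all genes (3.51% higher and 2.74% lower). Without 1 library of the comparison at a time it was 2 to 5 members, against 12.5% to 19.2% of all genes. The 5 were without naive replicate 3 (13.8%). Per2 was at 58.2 to 60.0 CPM in treated and 45.8 to 53.2 CPM in naive libraries (log2 fold change 0.23, 95% interval -0.11 to 0.57). Arntl was at 34.0 to 38.1 CPM in treated and 39.1 to 42.8 CPM in naive libraries (-0.18, 95% interval -0.37 to 0.01). The narrowest intervals were those of Tef (0.00, -0.13 to 0.13) and Cry2 (0.01, -0.14 to 0.16), and the widest that of Per1 (-0.01, -0.49 to 0.47). A p that misses the threshold does not show that the groups are alike, and these intervals give the differences that the data still allow.

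Ratios between transcripts of a library need no scaling between libraries. The log2 ratio of Per2 to Arntl, which are out of phase in a running clock, was 0.64, 0.65 and 0.82 in treated libraries, 1.00, 0.90 and 1.33 in EAE and 0.10, 0.44 and 0.34 in naive libraries. None of the 3 groups overlapped another on it, with EAE highest and naive lowest. The log2 ratio of Dbp to Arntl, a pair that is also out of phase, gave another order of means. It was 1.45 ± 0.21 in treated, 1.06 ± 0.17 in EAE and 1.13 ± 0.19 in naive libraries (SD, n = 3). All 3 groups overlapped one another on this ratio. Treated replicate 1 was at 1.21, below EAE replicate 2 at 1.24 and naive replicate 1 at 1.31. Dbp and Arntl were both lower in EAE. The log2 ratio of Tef to Dbp was 2.83 to 2.92 in EAE, above the 2.07 to 2.37 of treated and the 2.10 to 2.47 of naive libraries. The log2 ratio of Per1 to Per2 was 0.88 to 1.37 in treated, 1.22 to 1.29 in EAE and 1.23 to 1.62 in naive libraries. These ratios are combinations of the values above and were not tested.

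**Figure D3:**
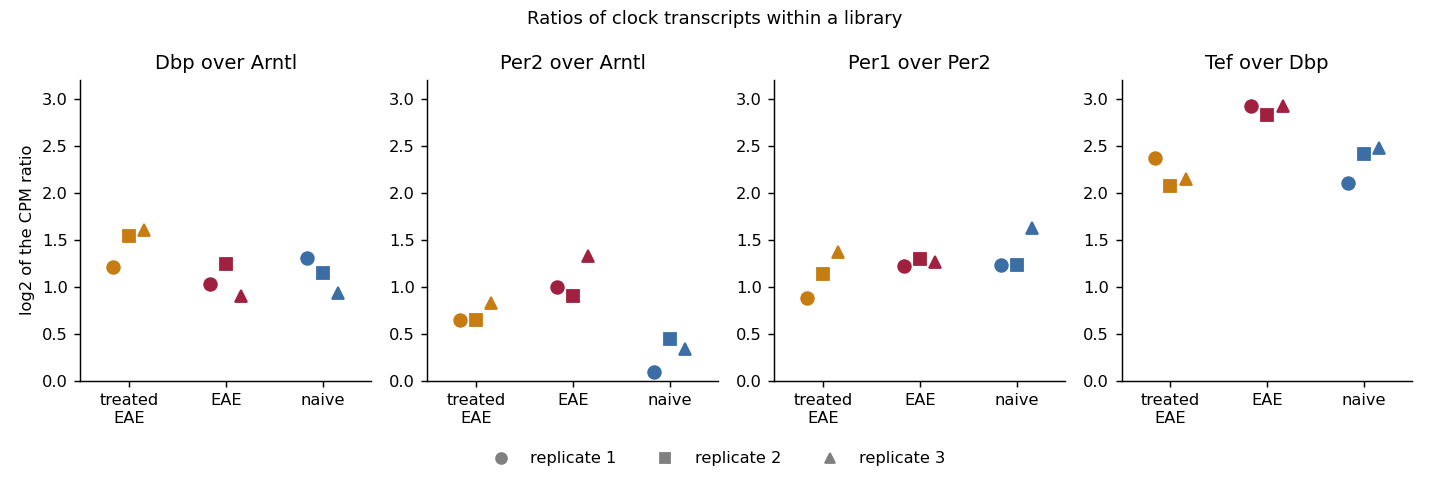
Log2 ratios of CPM within each library for 4 pairs of clock transcripts, with treated EAE at left, EAE in the middle and naive at right. The Per2 to Arntl ratio separates all 3 groups, and the Tef to Dbp ratio is 2.83 to 2.92 in EAE against 2.10 to 2.47 in naive libraries.

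Per1 was set beside genes of the inputs it is known to answer. A list of 20 other glucocorticoid-induced genes had 11 members that rose in EAE against naive cortex and none that fell, where 0.735% of all genes were called higher. The list's median log2 fold change was 1.17, against -0.01 over all genes tested. Ddit4, an inhibitor of mTORC1 signalling, rose to 71.1, 80.2 and 67.8 CPM in EAE, against 25.5, 27.3 and 28.1 CPM in naive cortex (log2 fold change 1.44, SE 0.08, edgeR adjusted p = 0.000179). Sgk1, a kinase gene that glucocorticoids induce, rose to 191 ± 25.5 CPM, against 54.7 ± 4.49 CPM in naive cortex (SD, n = 3 each, edgeR adjusted p = 0.0114). Nfkbia, Cebpd, Gjb6 and Sult1a1 rose with log2 fold changes of 1.22, 2.05, 1.33 and 1.35. In treated against untreated EAE, 5 of the 20 fell and none rose (0.129% of all genes fell), with a median of -0.86. Those that fell were Ddit4 (-1.25), Nfkbia (-0.96), Sgk1 (-1.42), Arrdc2 (-1.66) and Gjb6 (-0.96). These counts depended on single libraries while the medians moved less. Without 1 library at a time, 1 to 12 of the 20 rose in EAE against naive (1, 2 and 4 without naive replicates 1, 2 and 3, and 7 without EAE replicate 2), with medians of 1.09 to 1.24. In treated against untreated EAE 1 to 3 of the 20 fell without 1 library, whichever it was, with medians of -0.95 to -0.70. DESeq2 called 13 of the 20 lower there, against 2.08% of all genes it tested. The log2 fold changes of Per1 were 0.41 and -0.42 in these comparisons, smaller in size than the list medians, and its groups overlapped. Within the list the log2 fold changes ran from 0.03 (Dusp1) to 4.53 (Plin4), and from -2.50 (Plin4) to -0.15 (Zbtb16). Per1 lay inside both ranges. Of the 20 listed genes, 18 were higher without overlap in EAE against naive, against 12.2% of all genes, and 17 were lower without overlap in treated against untreated EAE, against 9.28%. This list was chosen with earlier results of these data known, so its counts are not independent of them.

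Neuronal immediate early genes are induced within minutes by CREB and related factors. Of 21 tested, none passed in edgeR or DESeq2, none had an unadjusted p under 0.05 and none had groups without overlap in EAE against naive or treated against untreated EAE, and the medians were -0.03 and -0.14. These medians rest on single libraries. Without 1 library of the comparison they ran from -0.52 to 0.13 in EAE against naive and from -0.36 to 0.40 in treated against untreated EAE. Without EAE replicate 3 they were -0.52 and 0.40, and without the 3 libraries numbered 3 they were -0.41 and 0.18, so no direction is read from them. Nptx2, with the smallest p in EAE against naive, had a log2 fold change of -0.35 (edgeR adjusted p = 0.394), followed by Npas4 (-0.67, adjusted p = 0.584). Their values varied widely within groups. The mean of the list in log2 CPM, with each gene centred on its mean over the 9 libraries, was 0.36, 0.73 and 0.27 in treated, EAE and naive replicate 3. In replicates 1 and 2 it was -0.48 and -0.11 in treated, -0.34 and -0.49 in EAE, and 0.02 and 0.03 in naive libraries. Arc, an immediate early gene of synaptic plasticity, was at 51.6, 134 and 354 CPM in treated replicates 1, 2 and 3, at 121, 75.6 and 430 CPM in those of EAE, and at 133, 119 and 261 CPM in naive ones.

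The library numbered 3 had the highest Per1 of its group in all 3 groups, as it had the highest immediate early mean. The same was so for Per3, Cry2 and Nr1d1, thus for 4 of the 10 members, 8 of the 25 further clock genes, 4 of the 20 glucocorticoid-induced genes and 10 of the 21 immediate early genes, against 9.13% of all genes tested. EAE replicate 3 also held the highest value of all 9 libraries for 5 of the 10 members (Per1, Per2, Per3, Cry2 and Tef), as it did for 12.0% of all genes. Glucocorticoid genes separated EAE from naive libraries whatever the number: the centred list mean was -0.49, 0.00 and -0.08 in treated replicates 1, 2 and 3, 0.63, 0.70 and 0.79 in those of EAE, and -0.57, -0.52 and -0.47 in naive ones. The libraries numbered 3 stood apart in their counts too: the number of genes with a count of 2, over that with a count of 1, was 4.43, 4.24 and 4.43 in treated, EAE and naive replicate 3, and 3.81 to 4.01 in the other 6 libraries. No label ties a number to a shared day, hour or litter. The part of these library differences, glucocorticoid signalling, neuronal activity and hour of collection in the values of Per1 was not tested, and an hour that differed between groups cannot be told apart from the group.

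**Figure D4:**
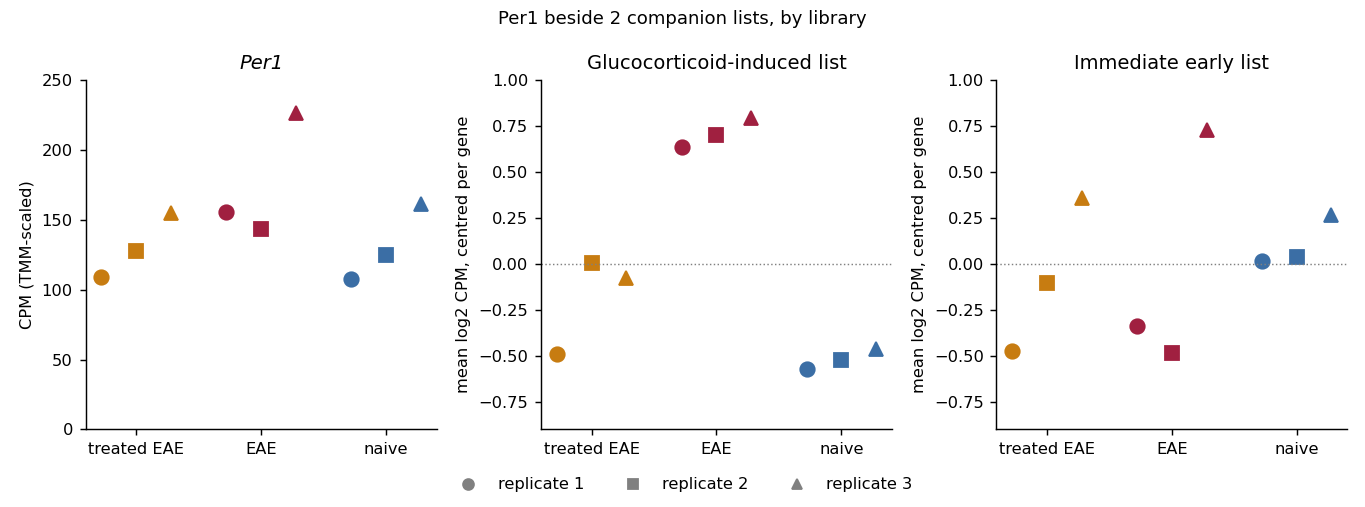
Per1 in CPM (left), and the mean log2 CPM of 20 glucocorticoid-induced genes (middle) and of 21 immediate early genes (right), each gene centred on its mean over the 9 libraries. The glucocorticoid mean is 0.63 to 0.79 in EAE and at most 0.00 elsewhere. The immediate early mean and Per1 are highest in replicate 3 of each group, and so is the glucocorticoid mean in EAE and naive.

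Of the temperature-responsive genes, Rbm3, a cold-inducible RNA-binding protein gene that is rhythmic in several tissues, was at 115 ± 6.55 CPM in EAE, against 74.9 ± 1.75 CPM in naive cortex (log2 fold change 0.62, edgeR adjusted p = 0.0114). It was at 69.3 ± 3.66 CPM in treated libraries (-0.73 against EAE, edgeR adjusted p = 0.00493). Cirbp, its relative, did not pass (0.17 in EAE against naive, edgeR adjusted p = 0.373). Against EAE, Cirbp was lower in treated libraries but did not pass there either (-0.31, edgeR adjusted p = 0.164). It was at 60.5 to 69.1 CPM in treated and 73.0 to 86.0 CPM in EAE libraries. Hspb1, a small heat shock protein gene, rose in EAE against naive (1.35, edgeR adjusted p = 0.0221). The heat shock genes Hsph1 (-0.43) and Hsp90aa1 (-0.28) had edgeR adjusted p of 0.0704 and 0.179 in that comparison, and Hspa1b (0.44) of 0.335. In all, edgeR called 2 of 9 genes higher and none lower in EAE against naive (0.735% of all genes higher), and 1 of 9 lower and none higher in treated against untreated EAE (0.129% of all genes lower). DESeq2 called 2 higher and 1 lower in EAE against naive, where it called 3.80% of all genes higher and 347 of 18513 lower. In treated against untreated EAE it called 2 higher and 2 lower, against 1.76% and 2.08% of all genes it tested. The first count depended on single libraries: none passed without naive replicate 1 or 2 and 1 passed without EAE replicate 2, EAE replicate 3 or naive replicate 3. In treated against untreated EAE the count was 1 whichever single library was left out, and 0 with only the 2 groups compared in the fit.

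The wider clock was followed in 25 further genes of the loop and its modifiers, all of them tested. None passed in edgeR or DESeq2 in any comparison. At an unadjusted p under 0.05 in edgeR there was 1 in each comparison, among them Rorb in EAE against naive and Ciart in treated EAE against naive. The shares of all genes were 16.4% in EAE against naive, 15.1% in treated against untreated EAE and 1.71% in treated EAE against naive. The groups did not overlap for 4 of 25 in EAE against naive (24.0% of all genes). It was 1 of 25 in treated against untreated EAE (19.2%) and 1 of 25 in treated EAE against naive (6.25%). Their median log2 fold changes were 0.02 in EAE against naive, -0.04 in treated against untreated EAE and 0.01 in treated EAE against naive. Paralogues of the members had overlapping groups. Nr1d2, the paralogue of Nr1d1, was at 118 to 144 CPM in treated, 129.7 to 159 CPM in EAE and 118 to 147 CPM in naive libraries. Hlf, the remaining PAR bZIP gene, was at 173 to 236 CPM in treated, 199.7 to 283 CPM in EAE and 179 to 238 CPM in naive libraries. Npas2, which can replace CLOCK in the forebrain, was at 46.8 to 53.3 CPM in treated, 51.1 to 56.7 CPM in EAE and 39.9 to 57.3 CPM in naive libraries.

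Of these genes, Rorb, a nuclear receptor gene related to those that activate Arntl, had the smallest p in EAE against naive (log2 fold change -0.39, SE 0.17, unadjusted p = 0.0468, edgeR adjusted p = 0.297). Ciart, a repressor of CLOCK and BMAL1, was at 21.2, 18.9 and 25.4 CPM in EAE and at 16.5, 16.5 and 17.2 CPM in naive cortex. These did not overlap (0.38, SE 0.17, edgeR adjusted p = 0.315). In treated libraries Ciart was at 18.1, 22.1 and 29.9 CPM, also above all naive values (0.48, SE 0.17, edgeR adjusted p = 1.00). Wee1, a cell cycle kinase gene with E-boxes (-0.26), and Gsk3b, a kinase that phosphorylates clock proteins (-0.16), had edgeR adjusted p of 0.329 and 0.360 in EAE against naive. In treated against untreated EAE Btrc, a ubiquitin ligase subunit gene (0.18), Wee1 (0.23) and Noct, a rhythmic phosphatase gene (0.18), had edgeR adjusted p of 0.347, 0.412 and 0.447.

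The genes whose pattern over the 9 libraries lay closest to a member were found by the root mean square difference of log2 CPM, each gene centred on its mean, among genes whose mean log2 CPM was 2 or more. For Per1 these were Frmd6 (0.08), Zfp651 (0.10) and Cebpb (0.10 log2 units), where the median over 12734 genes was 0.35. For Dbp they were Hcn3 (0.05), Scn2b (0.06) and Cdyl2 (0.07), against a median of 0.27. For Tef they were Scyl3 (0.03), Ldb1 (0.03) and Ewsr1 (0.04), against a median of 0.18. Hcn3 and Scn2b encode ion channel subunits of neurons. The nearness of Hcn3 to Dbp can be seen in its values of 19.3, 23.2 and 21.9 CPM in treated, 13.9, 14.7 and 14.3 CPM in EAE, and 20.9, 17.8 and 17.3 CPM in naive libraries.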

How the data were processed

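The authors deposited 1 table of raw counts per gene symbol. The series' design text names FastQC and fastp for quality control and trimming, Hisat2 for alignment and bowtie2 for quantification. Per the submitters' processing notes the build was mm10 (GRCm38) and FastQC was version 0.11.8. Per the labels' protocols, messenger RNA was enriched on oligo(dT) beads. The sources used here give no annotation, strand setting or counting option. Columns were matched to samples by title, and 9 further columns that match no sample used here were not used. Within a library, genes with a count of 2 outnumbered those with a count of 1 by 3.81 to 4.43 times, so the counts may not be independent fragments.

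All 9 libraries entered 1 fit of edgeR 4.0.16, under R 4.3.3 (genes kept by filterByExpr, TMM scaling, robust estimateDisp and glmQLFit, glmQLFTest, group as the only factor, 6 residual degrees of freedom). The Benjamini-Hochberg adjustment ran over all 18644 genes tested, and calls needed an adjusted p below 0.05. Standard errors are the absolute log2 fold change over the square root of F. DESeq2 1.42.0 and limma 3.58.1 served as alternatives. Exon lengths and overlaps come from the basic set of GENCODE M21, coordinates of genes too (GRCm38), and promoters from RefSeq.

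Same-numbered treated and EAE libraries deviated together from their group means (correlations 0.175, 0.245 and 0.238 over genes). Those of EAE and naive libraries were 0.0545, 0.114 and 0.36. Those of treated and naive libraries were -0.246, -0.121 and 0.199. A replicate block was therefore also fitted. The members and lists were chosen with earlier results of these data known. All 10 members are named. Of the further clock genes those passing and the 4 with the smallest p in the first 2 comparisons are named, and of the glucocorticoid, immediate early and temperature lists up to 6. Values of some listed genes are not reported here. Other genes named (Slc17a7, Vip, Gfap, Aqp4, Aldh1l1, Slc1a3, Arc, Nr1d2, Hlf, Npas2, Avp, Six6, Nms, Sphk2 and Thra) were chosen after their values were seen. So were Cirbp in the second comparison and Ciart in the third. So were Dusp1, Plin4 and Zbtb16, named as extremes of the glucocorticoid list. Dusp1 is in both the glucocorticoid and the immediate early list.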

Additional observations from a re-analysis of the deposited data

How the results depend on the processing

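No member's call in edgeR changed with scaling, filter, sample set, replicate block or a library left out, and DESeq2 alone made calls among them. Of the 18 alternatives, 1, without the 3 libraries numbered 3, was chosen after seeing the data. In EAE against naive every member kept its direction, with Per1 between 0.19 and 0.60 and Per2 between 0.32 and 0.67. The number of genes called depended on the setting. It was 184 in EAE against naive, 1051 with DESeq2, and between 2 and 261 when libraries were left out (87 without treated replicate 2, 34 and 52 without EAE replicates 2 and 3, and 2, 7 and 19 without naive replicates 1, 2 and 3). It was 41 in treated against untreated EAE, 690 with DESeq2, 3 with only the 2 groups compared, and between 4 and 38 when libraries were left out (20, 10 and 4 without treated replicates 1, 2 and 3, 6 and 5 without EAE replicates 2 and 3, and 14, 4 and 14 without naive replicates 1, 2 and 3). Without the 3 libraries numbered 3 it was 3 in each. In treated EAE against naive it was 0, and 3 with DESeq2. The cause was not tested. The replicate block gave 238 and 46 genes in the first 2 comparisons and changed no call of a member (Per1 0.41, adjusted p = 0.064, and -0.41, adjusted p = 0.0928).

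Signs turned only for differences near 0. For Clock in treated against untreated EAE the log2 fold change was 0.00, and -0.0024 with DESeq2, -0.0031 with RLE factors, -0.0122 with upper quartile factors, -0.0296 with no factors, -0.0017 with no filter and -0.0063 with only those groups, and between -0.0481 and 0.0263 when libraries were left out. In treated EAE against naive, Tef was at -0.0002, -0.0003, -0.0089, -0.0181, -0.0047 and -0.0028 in the same order, and Cry2 at -0.003 with upper quartile factors and -0.0123 with no factors. With 1 library left out, Per1 ran from -0.1487 to 0.164, Per3 from -0.0585 to 0.1601, Cry1 from -0.0921 to 0.0854, Cry2 from -0.0126 to 0.0311 and Tef from -0.0166 to 0.0064. Without the 3 libraries numbered 3, Per1 was at 0.0234, Per3 at -0.018, Cry1 at 0.0554, Clock at 0.0131 and Tef at -0.0187. Counting error was not measured, and 3 libraries a group limit what can be detected. Ratios within a library do not depend on scaling.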
